A study of Homo sapiens with 8 samples.

Results

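The genes described here are 32 genes of cholesterol and fatty acid synthesis and of its control by the sterol regulatory element-binding proteins (SREBPs), chosen by name from 12235 genes with ribosome footprints in at least 1 of 8 libraries. They comprised 18 enzymes of the sterol branch, 8 enzymes of the fatty acid branch and 6 regulators or sterol carriers, and 31 of the 32 were listed in at least 1 library. Ribosome profiling, which sequences the mRNA fragments protected by ribosomes, had been carried out in wild-type HEK293T cells, a line of human embryonic kidney origin that SV40 large T antigen has immortalised. All cells received dialyzed serum and custom DMEM to which either every amino acid was restored (Suff), or every one except arginine (Arg-), leucine (Leu-) or methionine (Met-). The 4 media were profiled in a series with cycloheximide (CHX, a drug that stops elongating ribosomes) and in a series without it, with 1 library per condition. A difference within either series therefore has no replicate check and no p-value, and the test given further on sets the 2 series against each other.

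SREBPs are transcription factors held in the endoplasmic reticulum membrane. When sterols are scarce, SCAP escorts them to the Golgi, where proteases free the part that enters the nucleus and switches on the genes of sterol and fatty acid synthesis; when sterols are plentiful, INSIG1 and INSIG2 keep SCAP in place. SREBF2 encodes the form that acts mainly on the sterol branch, SREBF1 encodes the forms that act largely on the fatty acid branch, and INSIG1 is itself a target, so that the level of INSIG1 mRNA is often read as a gauge of SREBP activity.

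Footprints on these mRNAs were mostly lower in starved than in sufficient cells in the series without CHX. The lowest were on INSIG1, at 0.126 of the sufficient share of reads in Arg-, 0.285 in Leu- and 0.117 in Met-. The sterol enzymes MSMO1 and IDI1 and the fatty acid synthase FASN were at least 2-fold lower in all 3 starvations. ACAT2, at the head of the sterol branch, was so in Arg- and Met-. SREBF1 was 2-fold higher in Arg- and Leu-, but it reached the mean of 10 RPKM set for a comparison only through those starved values. In the series with CHX, INSIG1 was again low in Arg- and Leu-, at 0.141 and 0.275, but no enzyme was 2-fold lower.

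The promoters of 3 members are shown because INSIG1 and MSMO1 had the lowest log2 ratios of the set in Arg- and Leu- without CHX and SREBF2 holds the only sterol regulatory element found. Each is the 250 bases before the transcription start in RefSeq (GRCh38.p14), read on the gene's strand, and capitals mark the sterol regulatory element TCACNCCAC, the E-box CACGTG and the CCAAT box CCAAT on either strand.
INSIG1 (chr7:155297628-155297877, + strand): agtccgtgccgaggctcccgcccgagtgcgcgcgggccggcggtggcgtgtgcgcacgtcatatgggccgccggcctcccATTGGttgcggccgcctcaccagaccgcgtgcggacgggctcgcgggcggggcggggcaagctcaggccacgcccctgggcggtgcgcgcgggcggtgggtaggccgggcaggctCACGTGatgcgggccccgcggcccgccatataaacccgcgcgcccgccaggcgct
MSMO1 (chr4:165327419-165327668, + strand): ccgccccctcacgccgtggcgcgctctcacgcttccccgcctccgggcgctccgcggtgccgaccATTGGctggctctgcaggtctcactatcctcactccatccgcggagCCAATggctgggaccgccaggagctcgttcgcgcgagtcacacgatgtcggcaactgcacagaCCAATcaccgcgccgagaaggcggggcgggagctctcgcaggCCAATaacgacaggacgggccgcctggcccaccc
SREBF2 (chr22:41832855-41833104, + strand): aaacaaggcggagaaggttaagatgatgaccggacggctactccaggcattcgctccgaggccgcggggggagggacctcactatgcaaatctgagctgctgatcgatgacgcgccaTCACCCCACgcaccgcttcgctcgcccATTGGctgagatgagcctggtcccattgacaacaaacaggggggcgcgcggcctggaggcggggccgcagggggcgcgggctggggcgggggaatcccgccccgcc

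INSIG1 held an E-box and a CCAAT box, MSMO1 held 4 CCAAT boxes, and SREBF2 held a sterol regulatory element and a CCAAT box. The search for shares covered the table's whole window, from 250 bases before to 50 bases after the transcription start. Of the 28 members found in the table, 18 (64.3%; 12 of 15 sterol enzymes and 3 of 7 fatty acid enzymes) held CCAAT in this window, against 34.6% of all 35116 promoters. The GC box GGGCGG was found in 26 of 28 members (92.9%) and in 45% of all promoters, and the E-box in 4 members (14.3%), namely INSIG1, SCAP, SC5D and LSS (in LSS after the start, at base 41), against 7.26%. The sterol regulatory element was found in 1 of 28, SREBF2, against 1.13% of all promoters. All promoters here include those of genes without listed footprints, and shares over listed genes alone were not taken. A match of letters describes the window and does not establish a binding site. The absence of this 1 form of the element from this window likewise does not show that a gene lacks one. The 4 members without an entry, FASN and ACAT2 among them, were not searched.

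The starts of the coding sequences are shown for some of the members whose levels are described below, since footprints were counted on coding sequences. Each line gives 9 bases before the start codon, the codon in capitals and 3 bases after it, on the transcript with the most footprints (GENCODE 44, GRCh38).
ACAT2: agaagcaagATGaat
HMGCS1: tctttcaccATGcct
IDI1: ggccgggcgATGtgg
MSMO1: atttgaaaaATGgca
INSIG1: gtgtgaccgATGccc
SREBF1: ggctgcgccATGgac
SREBF2: agccgggcgATGgac
FASN: agagcagccATGgag
SCD: agagccaagATGccg

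A purine stood at the third base before the start codon, the position most tied to efficient initiation, in 24 of 30 members (80%) and in 85.6% of 10843 mRNAs. A G right after the codon was found in 15 of 30 (50%), against 52.9% of all. Of the 9 start sites shown, INSIG1 was the only one with neither, and FASN, MSMO1, SREBF1 and SREBF2 had both. Among the members not shown, ELOVL6 also had neither.

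Levels are given as RPKM, in which the reads of each coding sequence are divided by its length in kilobases and by the library's total over coding sequences. RPKM is therefore a share of a library, and a lower value can come from fewer mRNA copies, from fewer ribosomes on each copy or from more reads on other mRNAs, which cannot be told apart in footprints alone. Reads recovered from the values amounted to 1302523 to 3139745 per library without CHX and 538222 (Met-) to 6434043 (Leu-) with CHX, and the fewest reads of any listed mRNA were 5 without CHX and 64 with it. Of the members, 30 were listed in each library without CHX, but 24 in Suff, 28 in Arg-, 28 in Leu- and 6 in Met- with CHX. FDFT1, squalene synthase, was listed in none, INSIG2 was listed with CHX only, and MVK, HSD17B7 and SREBF1 were listed without CHX only.

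Sufficient cells devoted more footprints to these mRNAs than to most others without CHX, where the members' median was 57.8 RPKM and that of all listed genes 17.6 RPKM. The highest was SCD, the stearoyl-CoA desaturase that makes monounsaturated fatty acids, at 487.2 RPKM, followed by EBP at 349.3 RPKM and FDPS, farnesyl diphosphate synthase, at 294.0 RPKM. The lowest was SREBF1 at 6.13 RPKM. The members' median was 28.5 RPKM in Arg-, 37.7 in Leu- and 39.8 in Met-, while the median of all listed genes was 21.4, 23.3 and 28.4 RPKM. With CHX the members' medians were 36.4, 30.1, 40.0 and 180.5 RPKM in Suff, Arg-, Leu- and Met-, against 59.3, 36.4, 33.2 and 211.5 RPKM for all listed genes, but over different members because the lists differed in depth.

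**Figure D1:**
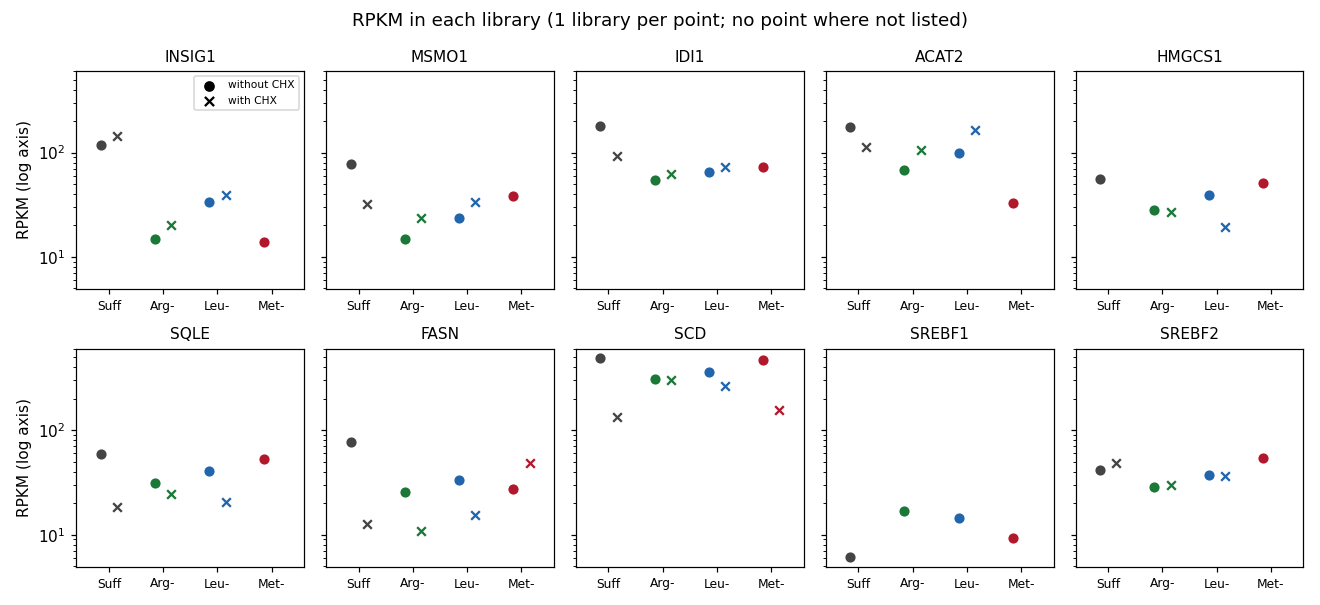
RPKM of the named members in each of the 8 libraries (log axis), with 1 point per library and the series with and without CHX drawn apart. INSIG1 was above 100 RPKM in both sufficient libraries and below 40 RPKM in every starved library that lists it, whereas SCD and SREBF2 stayed within a narrower range without CHX.

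INSIG1, which retains the SREBP and SCAP complex in the endoplasmic reticulum, stood at 118.0 RPKM in Suff, 14.9 in Arg-, 33.6 in Leu- and 13.8 in Met- without CHX. With CHX it stood at 143.4 RPKM in Suff, 20.2 in Arg- and 39.5 in Leu-, and it was not listed in Met-. All 5 starved values lay below both sufficient values. The log2 ratio, computed on RPKM + 1, was -2.90 in Arg-, -1.78 in Leu- and -3.01 in Met- without CHX, and -2.77 in Arg- and -1.83 in Leu- with CHX. The share of reads without CHX was 0.126 of that in Suff in Arg- (95% interval 0.076 to 0.198; 20 against 309 reads), 0.285 in Leu- (0.201 to 0.395; 42 reads) and 0.117 in Met- (0.0647 to 0.196; 15 reads). With CHX it was 0.141 (0.109 to 0.180; 84 against 305 reads) in Arg- and 0.275 (0.230 to 0.329; 211 reads) in Leu-. These exact intervals cover counting error only, and not the variation between cultures, since each condition had 1 library. The reads carry no molecular identifiers, and per the file names only the libraries without CHX had been freed of duplicates. With CHX any duplicate reads were thus counted separately, for which the intervals do not allow. Counted from the lowest ratio, INSIG1 was number 1 of 7448 mRNAs in Arg-, 9 of 7558 in Leu- and 3 of 7884 in Met- without CHX, and number 5 of 5074 and 29 of 5208 in Arg- and Leu- with CHX.

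The other regulators did not share this pattern. SREBF1 stood at 6.13 RPKM in Suff, 16.9 in Arg-, 14.4 in Leu- and 9.34 in Met- without CHX, the sufficient library being the lowest of the 4. Its log2 ratio was 1.33 in Arg- and 1.11 in Leu-, its share of reads being 2.75 times (95% counting interval 1.996 to 3.81; 96 against 68 reads) and 2.34 times (1.67 to 3.30; 76 reads) that in Suff. In Met- it was below the mean of 10 RPKM set for a comparison, and with CHX it was not listed. In Arg- and Leu- it reached that mean only through its starved values, so it could enter those comparisons only as higher. SREBF2 stood at 41.6, 28.8, 37.6 and 53.8 RPKM in Suff, Arg-, Leu- and Met- without CHX, and at 48.7, 30.1 and 36.1 RPKM in Suff, Arg- and Leu- with CHX. Its log2 ratios lay between -0.68 and 0.36, less than 2-fold in each comparison. SCAP, the escort, ranged from 22.3 to 42.4 RPKM without CHX, with log2 ratios of -0.14, -0.05 and 0.75 in Arg-, Leu- and Met-. INSIG2, the second retention protein, stood at 37.0, 32.5 and 46.3 RPKM in Suff, Arg- and Leu- with CHX, with log2 ratios of -0.18 and 0.31. STARD4, a cytosolic sterol carrier, had log2 ratios of -0.97, 0.13 and 0.78 in Arg-, Leu- and Met- without CHX.

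Among the enzymes that build the isoprenoid units, ACAT2, which joins acetyl-CoA units at the head of the pathway, stood at 173.9 RPKM in Suff, 68.6 in Arg-, 98.5 in Leu- and 32.8 in Met- without CHX. Its log2 ratios were -1.33, -0.81 and -2.37, and in Met- its share of reads was 0.189 (95% counting interval 0.139 to 0.251) of that in Suff. With CHX it stood at 114.1, 105.6 and 164.3 RPKM in Suff, Arg- and Leu-, within 2-fold of Suff in both. ACAT2 was thus lowest in Met- and not low in the CHX libraries that list it. HMGCS1, which makes HMG-CoA, stood at 56.2, 28.2, 39.3 and 50.6 RPKM in Suff, Arg-, Leu- and Met- without CHX, just short of 2-fold in Arg- (log2 ratio -0.97). With CHX it was listed at 27.1 RPKM in Arg- and 19.2 RPKM in Leu- and was not listed in Suff. IDI1, which isomerises isopentenyl diphosphate, stood at 180.7, 54.5, 65.6 and 72.7 RPKM without CHX. Its shares of reads were 0.301 (0.233 to 0.385), 0.363 (0.285 to 0.459) and 0.403 (0.314 to 0.510) of that in Suff, so that IDI1 was more than 2-fold lower in all 3 starvations. With CHX it stood at 92.1, 62.5 and 72.8 RPKM in Suff, Arg- and Leu-, again below Suff but by less than 2-fold (log2 ratios -0.55 and -0.34).

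The kinases and the decarboxylase of the mevalonate pathway did not move as a block. PMVK, phosphomevalonate kinase, stood at 135.3, 158.7, 205.4 and 131.3 RPKM in Suff, Arg-, Leu- and Met- without CHX. MVK, mevalonate kinase, lay between 15.7 and 25.1 RPKM in the same libraries. MVD, the decarboxylase that yields isopentenyl diphosphate, stood at 41.8, 71.7, 33.9 and 9.57 RPKM, higher than Suff in Arg- (log2 ratio 0.76) and much lower in Met- (-2.02). FDPS was lower in all 3 starvations without CHX (log2 ratios -1.02, -0.48 and -0.42) and higher in all 3 with CHX (0.94, 1.06 and 1.07), where its level was 96.3 RPKM in Suff and 185.6, 202.5 and 204.0 RPKM in Arg-, Leu- and Met-.

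In the steps from squalene to cholesterol, MSMO1, the sterol C4-methyl oxidase, had the lowest log2 ratios in Arg-, Leu- and Met- without CHX. It stood at 77.6 RPKM in Suff, 14.8 in Arg-, 23.48 in Leu- and 38.3 in Met- without CHX, with shares of reads of 0.190 (95% counting interval 0.116 to 0.299), 0.302 (0.201 to 0.442) and 0.493 (0.348 to 0.685) of that in Suff. In Met- its log2 ratio lay at the 2-fold limit itself. With CHX it stood at 31.99, 23.8 and 33.8 RPKM in Suff, Arg- and Leu-, less than 2-fold from Suff. SQLE, squalene epoxidase, stood at 59.3, 31.0, 40.7 and 52.5 RPKM in Suff, Arg-, Leu- and Met- without CHX (log2 ratios -0.92, -0.53 and -0.17), and at 18.4, 24.5 and 20.7 RPKM in Suff, Arg- and Leu- with CHX. Its order was therefore turned between the series, with Suff the highest without CHX and the lowest with it.

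The later enzymes were spread on both sides of Suff. EBP, the sterol isomerase, was below Suff in all 3 starvations without CHX (log2 ratios -1.11, -0.80 and -0.76) and in Arg- and Leu- with CHX (-0.79 and -0.61), and above it in Met- with CHX (0.42), at 417.4 against 311.9 RPKM. NSDHL, which acts with MSMO1 in removing the C4 methyl groups, stood at 90.8, 39.8, 59.0 and 118.4 RPKM in Suff, Arg-, Leu- and Met- without CHX and at 26.9, 58.7 and 55.1 RPKM in Suff, Arg- and Leu- with CHX, so that Arg- was more than 2-fold lower without CHX and more than 2-fold higher with it. DHCR7, which carries out the last reduction of 7-dehydrocholesterol, was lower in Arg- and Leu- (log2 ratios -0.86 and -0.90) and higher in Met- (0.90) without CHX. In Met- with CHX it stood at 292.1 RPKM against 34.8 RPKM in Suff. At that Suff level DHCR7 would not have been listed in Met- with CHX. SC5D, the desaturase before it, was higher than Suff in every starved library that lists it, with log2 ratios of 0.19, 0.63 and 0.85 without CHX and of 1.31 and 1.5 in Arg- and Leu- with CHX. CYP51A1, the lanosterol demethylase, LSS, lanosterol synthase, TM7SF2 and HSD17B7 were within 2-fold of Suff in each comparison that holds them.

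In the fatty acid branch, FASN stood at 77.8 RPKM in Suff, 25.4 in Arg-, 33.2 in Leu- and 27.1 in Met- without CHX, all 3 starved values being below the Suff value by more than 2-fold. Its shares of reads were 0.326 (95% counting interval 0.288 to 0.368), 0.427 (0.381 to 0.478) and 0.348 (0.305 to 0.396) of that in Suff. With CHX it stood at 12.7, 10.8, 15.6 and 49.1 RPKM in Suff, Arg-, Leu- and Met-, and its share in Met- was 3.86 times (3.19 to 4.68) that in Suff. At its Suff level FASN would not have been listed in Met- with CHX, so a lower value could not be seen there. SCD stood at 487.2, 312.7, 365.0 and 473.4 RPKM without CHX (log2 ratios -0.64, -0.42 and -0.04) and at 133.5, 302.8, 265.2 and 157.0 RPKM with CHX (1.18, 0.99 and 0.23). For both enzymes Suff was the highest of the 4 libraries without CHX, and it was the lowest for SCD with CHX.

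The desaturases FADS1 and FADS2, which introduce double bonds into polyunsaturated fatty acids, were low in Met- without CHX alone. FADS1 stood at 48.4, 39.6, 38.2 and 20.9 RPKM and FADS2 at 25.8, 22.8, 20.02 and 6.90 RPKM in Suff, Arg-, Leu- and Met-, with log2 ratios in Met- of -1.17 and -1.76. ELOVL6, the elongase of saturated chains, was 2-fold lower in Arg- alone, at 47.5, 15.6, 37.7 and 41.4 RPKM. ACLY, which supplies cytosolic acetyl-CoA from citrate, was above Suff in all 5 starved libraries that list it, from 88.8 RPKM in Suff to 113.8 to 136.8 RPKM without CHX and from 21.1 RPKM in Suff to 82.2 RPKM in Arg- and 40.6 RPKM in Leu- with CHX. ACSS2 and ACACA, acetyl-CoA synthetase and acetyl-CoA carboxylase, lay below 13 RPKM in every library that lists them.

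**Figure D2:**
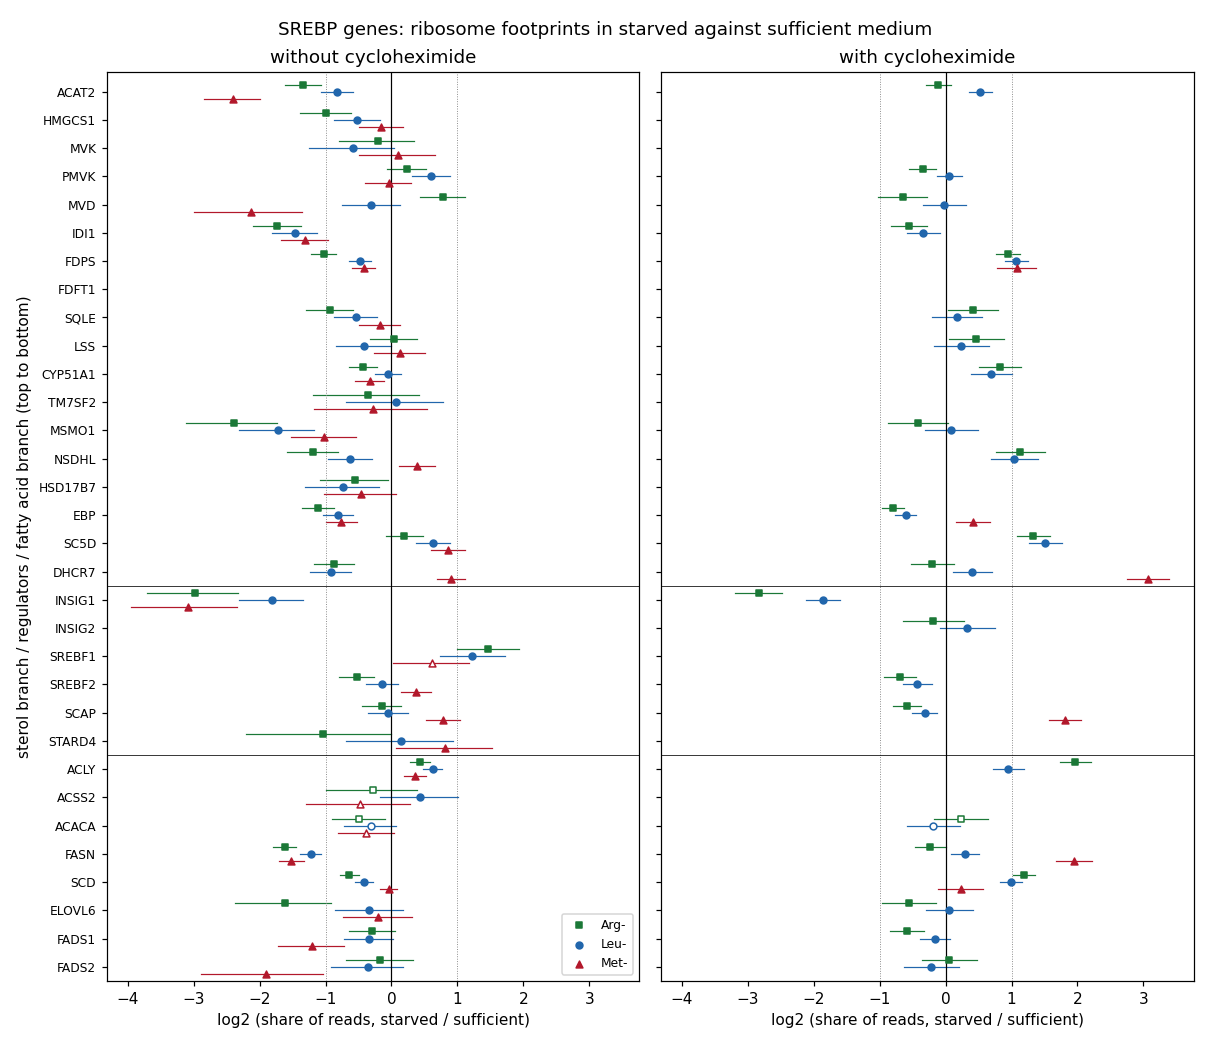
Log2 of the share of reads in starved over sufficient cells for each member listed in both libraries, ordered as sterol branch, regulators and fatty acid branch, with the series without and with CHX in separate panels. Points are 1 starved against 1 sufficient library, bars are 95% counting intervals, open symbols mark members with a mean below 10 RPKM, and dotted lines mark 2-fold. INSIG1 lies far to the left in both panels, whereas MSMO1, IDI1, ACAT2 and FASN do so without CHX only.

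To set the members against other mRNAs, each comparison was limited to mRNAs listed in both libraries with a mean of at least 10 RPKM, and 2-fold was used as the limit. In Arg- without CHX, 9 of 28 members (32.1%) were at least 2-fold lower, against 5.95% of all 7448 mRNAs, and 1 (3.6%) was 2-fold higher, against 8.23%. In Leu- without CHX, 4 of 29 (13.8%) were 2-fold lower, against 2.06% of 7558 mRNAs, and 1 was higher, against 6.85%. In Met- without CHX, 8 of 27 (29.6%) were 2-fold lower, against 5.34% of 7884 mRNAs, and 0 were higher, against 20.2%. In these 3 comparisons the members' share on the lower side stood above that of all mRNAs. The 1 higher member in Arg- and in Leu- was SREBF1, which reached the mean of 10 RPKM only through its starved values. IDI1, MSMO1, INSIG1 and FASN were 2-fold lower in all 3, and the share of all mRNAs lower in all 3 was not taken. The 3 comparisons share the sufficient library and are therefore not independent of each other.

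The members' median log2 ratio without CHX was -0.59 in Arg-, -0.40 in Leu- and -0.19 in Met-, where the median of all mRNAs was -0.02, 0.14 and 0.32. Below that median lay 22 of 28, 24 of 29 and 20 of 27 members. Relative to it, 8, 5 and 9 members were 2-fold lower and 1, 0 and 0 were 2-fold higher, SREBF1 being just under 2-fold in Leu- on that scale. Over all mRNAs this centring altered the numbers higher and lower from 518 and 156 to 338 and 260 in Leu- and from 1594 and 421 to 846 and 840 in Met-. The sterol branch had medians of -0.86, -0.53 and -0.26 over 17 enzymes, and the fatty acid branch had medians of -0.46, -0.34 and -0.68 over 6, 7 and 6 enzymes. The sterol median was thus lower than the fatty acid median by 0.40 in Arg- and by 0.20 in Leu- and higher by 0.42 in Met-, where FASN, FADS1 and FADS2 were low. In Met- this direction turned with a mean of at least 50 RPKM, which left out FADS1 and FADS2 (sterol minus fatty acid median -0.21), and the distance was 0.12 with no filter. Within each branch the ratios were spread more widely than these distances, the sterol branch in Arg- running from -2.32 (MSMO1) to 0.76 (MVD).

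**Figure D3:**
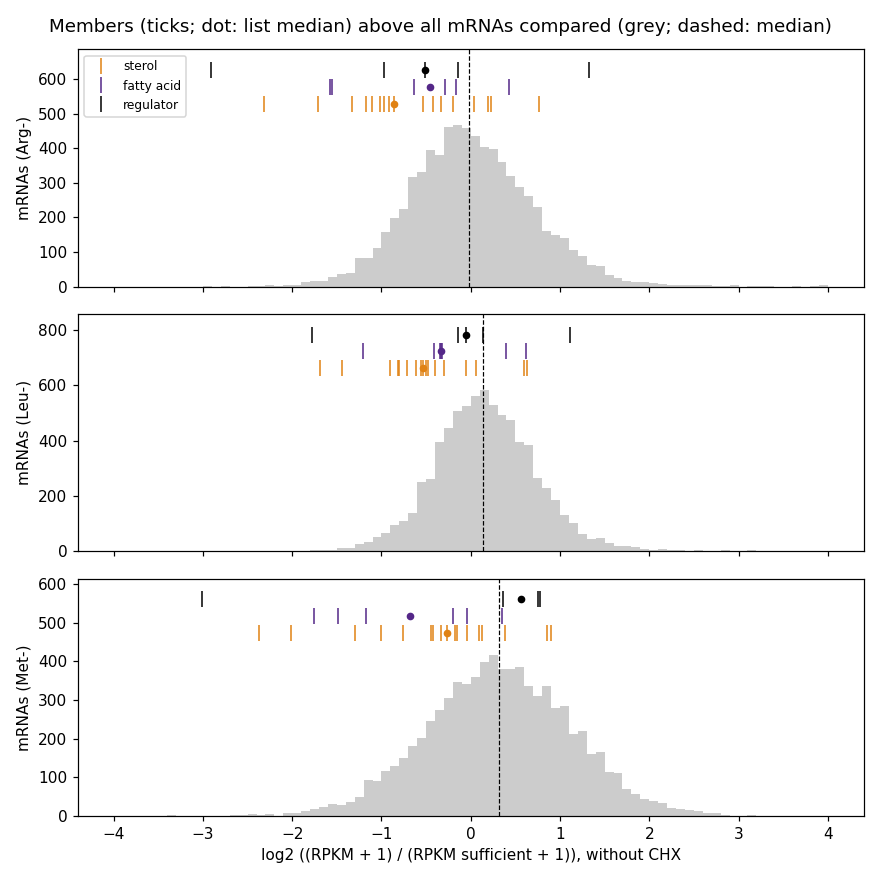
Number of mRNAs (y axis) by log2 ratio of RPKM + 1 against Suff (x axis) in Arg-, Leu- and Met- without CHX, with all mRNAs compared in grey and their median dashed, each member as a tick in its branch's colour and each branch's median as a dot; mRNAs past the last bin at either end are counted in it. Most members lie left of the dashed line (22 of 28, 24 of 29 and 20 of 27).

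With CHX the members did not stand below other mRNAs. In Arg- 1 of 23 (4.3%) was 2-fold lower, against 19.7% of 5074 mRNAs, and 4 (17.4%) were higher, against 16.6%. In Leu- 1 of 23 (4.3%) was 2-fold lower, against 7.28% of 5208 mRNAs, and 3 (13.0%) were higher, against 12.1%. INSIG1 was the member that was lower in both, and NSDHL, SC5D, ACLY and SCD in Arg- and FDPS, NSDHL and SC5D in Leu- were the higher ones. Relative to the median of all mRNAs, 6 members were higher and 1 lower in Arg-, where the numbers over all mRNAs altered from 844 and 1001 to 1092 and 630. The members' medians were -0.20 in Arg- and 0.16 in Leu-, near those of all mRNAs (-0.23 and 0.02), and the medians of the sterol and fatty acid branches were -0.11 and -0.08 in Arg- and 0.22 and 0.16 in Leu-.

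In Met- with CHX the library was the shallowest and listed 6 members. Its floor of 64 reads favoured mRNAs with a higher share in Met-, among the members and among all mRNAs alike. Of these, FDPS, DHCR7, SCAP and FASN (66.7%) were 2-fold higher than in Suff, against 46.7% of 1890 mRNAs, and 0 were 2-fold lower, against 9.79%. At 2-fold below its Suff level, none of the 6 members would have reached 64 reads in Met-, so the 0 was fixed by the listing. Their median log2 ratio was 1.43, against 0.89 for all mRNAs, and relative to that median 1 member, DHCR7 (log2 ratio 3.03), was 2-fold higher, the numbers over all mRNAs altering from 882 higher and 185 lower to 393 and 434. Of 18 members listed in Suff and not in Met-, 15 stood in Suff below the RPKM that the 64 reads of the least covered listed mRNA would give in Met- (16.6 to 206.4 RPKM depending on length), so that their absence carries no direction. For INSIG1 that level was 143.1 RPKM, against 143.4 RPKM in Suff. For DHCR7 and FASN it lay above their Suff values of 34.8 and 12.7 RPKM, so that either could be listed in Met- only as higher.

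The series with and without CHX share no library, and each starvation could therefore be set against its counterpart. In Arg-, 14 of 22 members (63.6%) had ratios of the same sign in both series, against 71.1% of 4765 mRNAs, and in Leu- 11 of 22 (50%), against 71.2% of 4871 mRNAs. In Met- it was 2 of 6 (33.3%), against 70.5% of 1797 mRNAs. Of these 6, DHCR7 and FASN could be listed in Met- with CHX only as higher, so their sign in that series was fixed. All 11 members of unlike sign in Leu- were lower without CHX and higher with it, as were 6 of the 8 in Arg- and the 4 in Met-, FASN among them. How unlike signs divided over all mRNAs was not counted, so this direction cannot be called particular to the members. INSIG1 was the only member at least 2-fold lower in both series in Arg-, and likewise in Leu-. The share of all mRNAs that were 2-fold lower in both series was not taken. The series also differed in depth, in the removal of duplicate reads and, for NSDHL, SREBF2, STARD4, ACSS2 and ELOVL6, in the transcript with the highest RPKM, and the part of these in the unlike signs was not tested.

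A fit of log2(RPKM + 1) on medium and CHX series (limma) measured whether a difference exceeded the disagreement between the series, over 6 libraries for Arg- and Leu- with 2 residual degrees of freedom and over all 8 for Met- with 3. INSIG1 was lower by 2.84 ± 0.26 (SE) in Arg- (limma, Benjamini-Hochberg adjusted p = 0.00903), as in both series, and was the only member of 22 past the threshold, against 7.83% of 4879 mRNAs lower and 5.72% higher. In Leu- it was -1.81 ± 0.26 (limma, adjusted p = 0.0642), and 0 of 22 members passed, against 0% of mRNAs lower and 0.0205% higher. At an unadjusted limma p under 0.05 there were 4 of 22 members, against 21.2% of all 4879 mRNAs. In Met-, where INSIG1 was not listed with CHX, DHCR7 was the only one of 6 members to pass, against 2.63% of 1790 mRNAs lower and 8.16% higher. It was higher by 1.96 ± 0.53 (limma, adjusted p = 0.0425). DHCR7 could be listed in Met- with CHX, and so tested, only as higher, since 64 reads there exceed its Suff level of 34.8 RPKM. Its p-value does not allow for that selection. MSMO1, IDI1, ACAT2 and FASN did not pass in Arg- (adjusted p = 0.0770, 0.0670, 0.194 and 0.131).

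**Figure D4:**
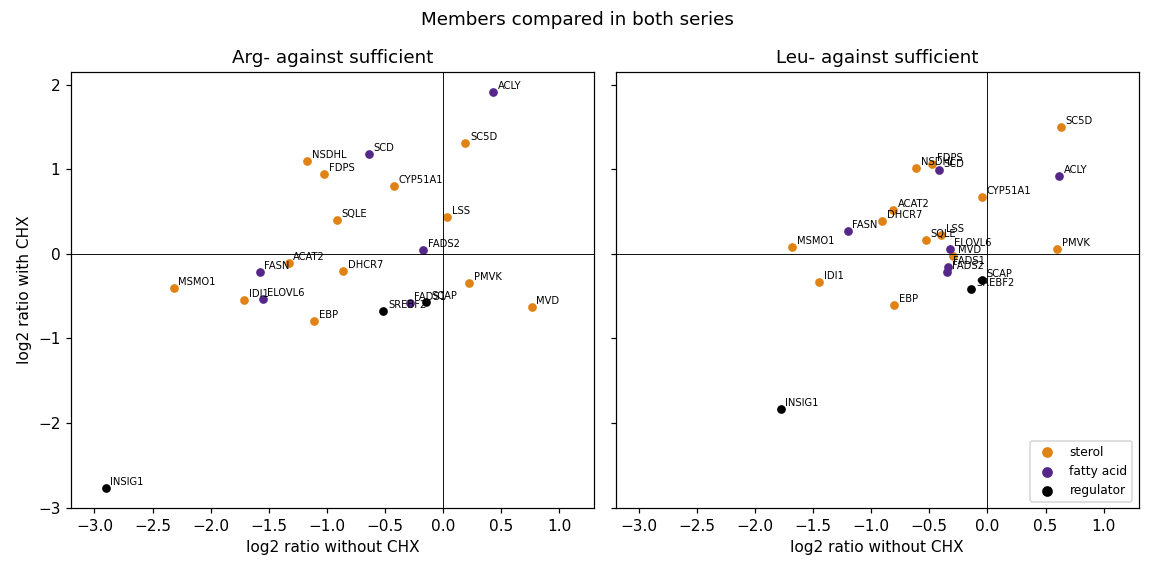
Log2 ratio against Suff with CHX (y axis) and without CHX (x axis) for each member compared in both series, in Arg- (left) and Leu- (right), coloured by branch. INSIG1 lies in the lower left in both, and the upper left quadrant, lower without CHX and higher with it, holds 6 members in Arg- and 11 in Leu-. The same count over all mRNAs was not made.

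The proteins that these mRNAs encode were compared with all 11063 proteins for the amino acids that were withdrawn. Their median content was 2.05% methionine (all proteins 2.13%), 10.8% leucine (9.76%) and 5.14% arginine (5.63%), and 22 of 30 members lay above the median leucine content of all proteins. Across the members, Spearman's rho between the content of an amino acid and the log2 ratio without CHX when it was withdrawn was 0.27 for arginine (28 members), -0.16 for leucine (29) and -0.05 for methionine (27), over genes that share the same pair of libraries. INSIG1, a protein of 277 residues, had 1.81% methionine.

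Of 48 other genes of the pathway, covering SREBP processing, isoprenoid synthesis, sterol export and transport, and fatty acid elongation, 0 of 39 compared were 2-fold lower in Arg- without CHX, 0 of 41 in Leu- and 4 of 42 in Met-, while 2, 0 and 6 were 2-fold higher. Over all mRNAs the lower share was 5.95%, 2.06% and 5.34% and the higher share 8.23%, 6.85% and 20.2%. With CHX, 3 of 24 were 2-fold lower and 2 higher in Arg-, 0 lower and 2 higher of 24 in Leu-, and 0 lower and 2 higher of 8 in Met-. Their medians with CHX were -0.41, 0.13 and 0.51 in Arg-, Leu- and Met-, against -0.23, 0.02 and 0.89 for all mRNAs. Without CHX their medians were -0.05, 0.26 and 0.26, close to those of all mRNAs (-0.02, 0.14 and 0.32). The genes at least 2-fold higher in both Arg- and Met- without CHX were OSBP and NPC1. OSBP, an oxysterol-binding protein that moves cholesterol between membranes, had log2 ratios of 1.44 and 1.28. NPC1, which exports cholesterol from lysosomes, had log2 ratios of 1.20 and 1.25. In Leu- their log2 ratios were 0.83 and 0.94. NPC1 stood at 6.81 RPKM in Suff and reached the mean of 10 RPKM only through its starved values, so it could enter only as higher. Neither gene could be compared with CHX.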

How the data were processed

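Ribosome footprints of HEK293T cells were measured in 8 libraries, 1 per medium and CHX condition, grouped by their sample titles. The authors deposited RPKM values per transcript. Adaptors were trimmed, by cutadapt per the submitters' processing notes and by a Perl script per the study's methods. Reads were aligned with Bowtie per both sources, and reads on coding sequences were scaled to their length and to all such reads of the library. Per the file names, only the libraries without CHX had been freed of duplicates. The annotation release is not given in the sources used here. Transcripts were named through GENCODE 44 (96.4 to 96.7% matched), and the highest transcript of each gene was used in each library. Reads were recovered from the RPKM and the coding length, 97.2 to 97.4% of values being whole within 0.01 reads. They served for depth and for exact (Clopper-Pearson) 95% intervals of the ratio of 2 libraries, which cover counting error only.

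Log2 ratios of RPKM + 1 were taken against Suff of the same series. mRNAs listed in both libraries with a mean of at least 10 RPKM were compared, and 2-fold was the limit. Within a series no test was run, because each condition had 1 library. Over both series, limma (lmFit, eBayes with trend) was fitted with medium and series as terms to genes listed in all libraries of the fit with a mean of at least 10 RPKM, a test added after the data had been seen. Its residual spread includes any difference in response between the series. Values in every library are given for members at least 2-fold from Suff in the same direction in both series, or in at least 2 of the 3 starvations without CHX, and for SREBF1, SREBF2, INSIG1, HMGCS1, SQLE, FASN and SCD; other members are described from the same tables. Of the other pathway genes, those 2-fold from Suff in one direction in at least 2 of 3 starvations are named. The members and lists were chosen with earlier results of these data known. Alternatives covered the pseudocount, the filter, mRNAs absent from 1 library, the choice of transcript and centring. The code was checked on simulated data. Python 3.11.15, pandas 2.3.3, scipy 1.17.1 and limma 3.58.1 were used.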

Additional observations from a re-analysis of the deposited data

Results flagged for a closer look

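NSDHL stood on opposite sides of Suff in Arg-, with a log2 ratio of 1.10 with CHX and -1.17 without it, and FASN did so in Met-, with 1.87 with CHX and -1.49 without it. Each value compares 1 starved with 1 sufficient library, and the difference between the series was not tested. At its Suff level with CHX, FASN would not have reached the 64 reads of the least covered mRNA listed in Met-. Its positive sign there was therefore fixed by the listing. The highest transcript of NSDHL differed between the series.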

How the results depend on the processing

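Of 210 summary values under 7 alternatives, 198 kept a median within the order-statistic interval over its genes or a count within 1.5 times, 9 moved and 3 reversed. That interval is wide over few genes, and 6 medians near 0, all in Arg- with CHX, changed sign, namely the fatty acid median (1.55 at a mean of at least 50 RPKM, 0.05 with no filter and 0.15 centred), the sterol median (0.14 with absent mRNAs as 0 and 0.12 centred) and the members' median (0.03 centred). The sterol minus fatty acid median turned in 5 of 42 settings, to -0.21 in Met- without CHX and -0.13 in Leu- with CHX at a mean of at least 50 RPKM, to 0.22 in Arg- and -0.57 in Met- with CHX with absent mRNAs as 0, and to -0.01 in Met- with CHX at a pseudocount of 0.1. INSIG1 was the same in all 35 settings run, its log2 ratio lying between -2.98 and -2.88 in Arg-, -1.92 and -1.78 in Leu- and -3.32 and -3.01 in Met- without CHX, and between -2.82 and -2.54 in Arg- and -1.86 and -1.83 in Leu- with CHX. With a mean of at least 50 RPKM, 0 members were 2-fold higher in Arg- or Leu- without CHX, the Leu- median was -0.71 over 14 members, and 5 of 16 members were 2-fold lower in Met-. Centred on the median of all mRNAs, 0 members were 2-fold higher in Leu- without CHX, and in Met- with CHX the sterol median was 0.19, the fatty acid median was 0.16 and 1 member was higher. With absent mRNAs counted as 0, the medians in Met- with CHX became -5.04 for the members, -5.04 for the sterol branch and -4.47 for the fatty acid branch, with 15 of 21 members lower; by construction these are mRNAs missing from the shallowest library. The 2-fold lower counts in Arg- and Leu- without CHX were within 1.5 times of the value given in every alternative. Libraries were paired by CHX series in the limma fit given in the report; no other paired analysis was possible because each condition had 1 library.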
